A study of Mus musculus with 2 samples.

Results

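The mitosis and spindle genes are 40 genes whose products carry a cell through division. They were taken as a fixed list of symbols, set with earlier results of these data known. They make up 40 of the 32285 genes listed in each library, and all 40 passed the minimum of 10 UMIs (unique molecular identifiers, each counting 1 captured transcript) in both libraries. The study compared T cells from the tumours of mice of the BALB/c strain, aged 4 to 6 weeks, that carried subcutaneous EMT6 tumours, a mouse mammary carcinoma line of that strain. The mSTAR1302 mice were given this antibody treatment into the peritoneum for 2 cycles at 1 dose per week, starting once tumours measured 80 to 150 mm3. The vehicle mice carried the same tumours, were randomised at the same size and are labelled vehicle, with nothing further said of what they were given. All cells of both groups had been pulled from digested tumours with beads against CD4 and CD8, and each group is 1 droplet library with 3' ends counted. The labels do not say how many mice stand behind a library or whether they were pooled. With 1 library a group there is no replicate spread and no test between groups. Intervals are 95% and cover counting error only, since cells and reads of 1 library are not replicates.

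A dividing cell copies its DNA in S phase and then turns on a late wave of genes for mitosis. Cdk1 with its cyclins starts mitosis, kinetochores tie chromosomes to spindle microtubules, motors and crosslinkers shape the spindle, the anaphase promoting complex releases the sister chromatids, and a contractile ring parts the daughter cells. In T cells these genes are silent at rest and come on together during clonal expansion after antigen receptor stimulation, which is why Mki67 and Top2a are used as proliferation markers. Many of their promoters hold a cell cycle homology region, bound by a repressor complex in resting cells and by an activator complex in cycling cells, and CCAAT boxes, bound by NF-Y.

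The promoters below show how far the 40 genes share these letters. RefSeq windows (GRCm38.p6, 250 bases before to 50 after the gene's start) were matched for 35 members. Spc24, Kif20a, Ccna2, Tpx2 and Aurkb had no entry. The letters TTTGAA or TTCGAA (the cell cycle homology region, both strands, with TTCGAA reading the same on both and counted a single time) were in 30 of 35 members (85.7%), against 19.4% of all 27025 promoter windows. CCAAT on either strand was in 27 of 35 (77.1%), against 37.9% of all windows. Both stood in 25 of 35 (71.4%), against 7.70%. Shown are 4 members described in CD8 cells, chosen to span many and few matches: Top2a with 10, the highest count of the 35, Cdk1 with 5, Knl1 with 1 and Birc5 with 0. Others are not shown, among them Ube2c with 7, Hmmr with 6, Mki67 with 5, and Nuf2 and Nusap1 with 0. Capitals mark every match on either strand, so ATTGG is CCAAT and TTCAAA is TTTGAA read on the other strand. A match describes the letters and is not a measured binding site.
Top2a, chr11:99024140-99024439, - strand: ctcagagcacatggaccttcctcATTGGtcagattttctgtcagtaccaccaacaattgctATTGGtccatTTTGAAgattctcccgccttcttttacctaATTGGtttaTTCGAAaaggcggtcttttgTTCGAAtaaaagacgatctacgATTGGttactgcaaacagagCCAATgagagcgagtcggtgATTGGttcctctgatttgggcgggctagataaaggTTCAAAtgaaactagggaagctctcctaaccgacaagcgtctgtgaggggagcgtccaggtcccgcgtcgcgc
Cdk1, chr10:69352863-69353162, - strand: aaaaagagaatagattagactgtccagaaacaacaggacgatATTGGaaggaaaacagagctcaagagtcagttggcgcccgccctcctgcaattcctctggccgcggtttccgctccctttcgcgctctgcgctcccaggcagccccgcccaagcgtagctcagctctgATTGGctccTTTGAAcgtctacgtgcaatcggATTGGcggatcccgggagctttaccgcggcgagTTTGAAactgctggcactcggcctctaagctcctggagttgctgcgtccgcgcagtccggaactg
Knl1, chr2:119046869-119047168, + strand: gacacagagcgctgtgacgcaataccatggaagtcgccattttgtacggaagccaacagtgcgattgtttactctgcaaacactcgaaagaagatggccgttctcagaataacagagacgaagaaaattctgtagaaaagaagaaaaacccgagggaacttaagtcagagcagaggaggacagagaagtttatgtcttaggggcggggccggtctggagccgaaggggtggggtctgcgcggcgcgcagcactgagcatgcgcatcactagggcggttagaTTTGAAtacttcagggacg
Birc5, chr11:117848987-117849286, + strand: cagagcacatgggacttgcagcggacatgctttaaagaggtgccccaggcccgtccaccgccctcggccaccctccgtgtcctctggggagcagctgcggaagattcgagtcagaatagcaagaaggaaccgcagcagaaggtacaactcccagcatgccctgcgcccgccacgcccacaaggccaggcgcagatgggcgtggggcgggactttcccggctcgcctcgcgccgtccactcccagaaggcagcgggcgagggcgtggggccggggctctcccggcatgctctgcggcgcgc
Top2a held 4 homology regions and 6 CCAAT boxes, Cdk1 2 and 3, and Knl1 a lone TTTGAA that lies 31 bases after the start. Birc5, the survivin gene, held neither motif in its window.

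The libraries held 96486469 UMIs for mSTAR1302 and 110026997 for vehicle. The filters (at least 1000 UMIs and 500 genes, at most 10% mitochondrial UMIs) kept 9155 and 7615 barcodes with medians of 6260.0 and 8448 UMIs, and 17 kept barcode sequences occurred in both libraries. T cells (at least 2 Cd3 UMIs) were gated as CD8, CD4 without a Foxp3 UMI, and CD4 with a Foxp3 UMI, the transcript of the master regulator of regulatory T cells. All 8 T cell markers were seen in each gate, at summed levels of 5705 to 6671 CPM (UMIs of a gene scaled to the UMI total of the gate). Macrophage and monocyte markers were not at 0. Their sum in CD8 cells was 82.7 CPM in mSTAR1302 and 919 CPM in vehicle, with 10 of 10 markers seen in each and 0 of 10 higher in mSTAR1302. The CD8 results are given below also without the barcodes that hold these UMIs. Droplets of 20 to 100 UMIs, 1607 in mSTAR1302 and 3036 in vehicle, were taken to hold mostly free RNA, which was not tested. They carried the 40 genes at 933 CPM (720 to 1189) in mSTAR1302 and 1578 CPM (1342 to 1843) in vehicle. A barcode of 3000 UMIs made of nothing but such RNA would thus hold 2.80 member UMIs in mSTAR1302 and 4.73 in vehicle.

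Most T cells held few of the 40 genes and a small share held many at the same time. To compare cells of unequal depth, each was thinned to 3000 UMIs and shallower cells were left out. Of 5610 CD8 cells in mSTAR1302, 2538 (45.2%) held 0 of the 40 genes and 338 (6.02%) held 10 or more. In vehicle, 704 of 2340 CD8 cells (30.1%) held 0 and 103 (4.40%) held 10 or more. Cells with at least 5 members held a median of 12 of the 40 in both libraries. This line at 5 divides a range and not cell types, but few cells lay near it: 57, 30 and 35 CD8 cells of mSTAR1302 held 4, 5 and 6 members, against 46, 16 and 9 of vehicle. The cells with at least 5 members were deeper before thinning, with medians of 12178 and 20284 UMIs, against 6829 and 9886.5 UMIs in the remaining CD8 cells of mSTAR1302 and vehicle.

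**Figure D1:**
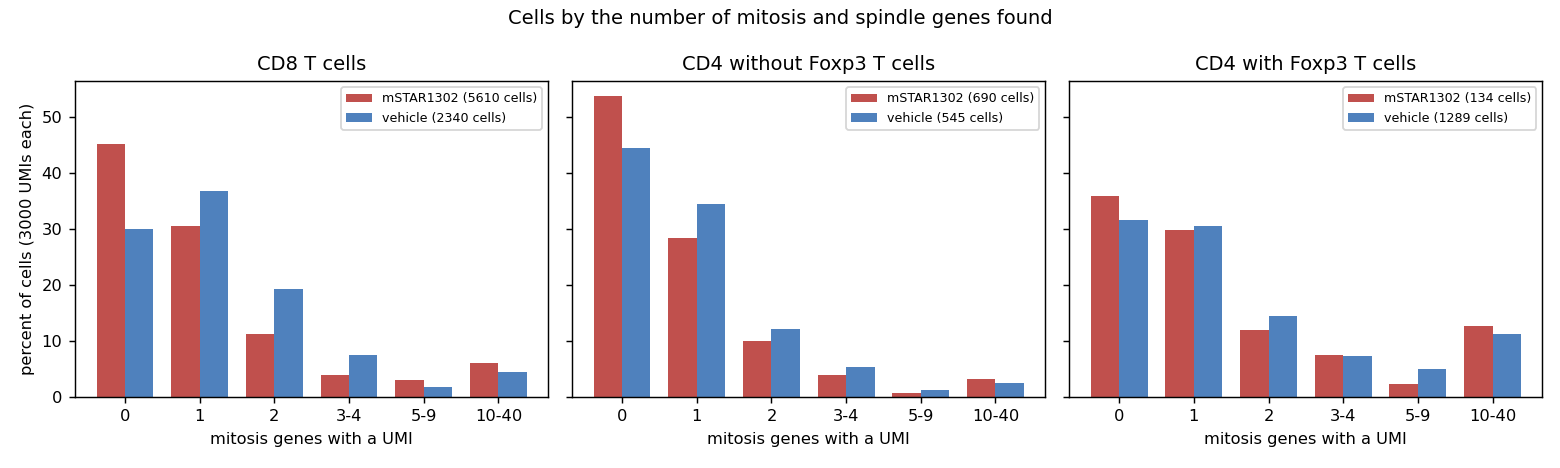
Percent of cells (vertical axis, each cell thinned to 3000 UMIs) by the number of the 40 mitosis and spindle genes with a UMI (horizontal axis), in 3 T cell gates, mSTAR1302 in red and vehicle in blue. In CD8 cells 45.2% of mSTAR1302 and 30.1% of vehicle cells held 0 of the genes, while 6.02% and 4.40% held 10 or more.

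In CD8 cells the share of cells with at least 5 members was higher in mSTAR1302, but the summed level of the 40 genes was lower. At least 5 members were found in 511 of 5610 CD8 cells (9.11%, 8.37 to 9.89) in mSTAR1302 and in 146 of 2340 (6.24%, 5.29 to 7.30) in vehicle. That is a difference of 2.87 percentage points (1.59 to 4.07), and 680 and 120 cells were too shallow to enter. The 40 genes summed to 1149.9 CPM in mSTAR1302 and 1340.3 CPM in vehicle, a ratio of 0.858 (0.847 to 0.869). The share turned to the other side without thinning, at 12.9% of mSTAR1302 and 17.97% of vehicle CD8 cells. It also did so when 3 members a cell were asked for, at 13.1% and 13.8%, a difference of -0.68 percentage points (-2.37 to 0.94). Background for this share came from barcodes with 10 or more macrophage marker UMIs and no Cd3 UMI. At least 5 members were in 0 of 20 of these in mSTAR1302 (median 9564 UMIs), which allows a share of up to 15% as 3 counts of 20 and up to 16.8% by the exact interval, and in 6 of 74 in vehicle (8.11%, 3.03 to 16.8, median 19852 UMIs), 4 of them with 10 or more. The vehicle share in CD8 cells did not exceed that of these barcodes. The mSTAR1302 share in CD8 cells, 9.11%, also lies below the limit that 0 of 20 allows. With 20 barcodes no share under 15% could exceed that limit. The macrophage-marker barcodes may themselves be dividing cells, so they do not decide whether either CD8 share exceeds background.

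Leaving out a small number of very deep barcodes turned the direction of the sum. CD8 barcodes above 30000 UMIs numbered 35 in mSTAR1302 (0.556% of the gate) and 67 in vehicle (2.72%). They carried 6.19% of the member UMIs in mSTAR1302 and 38.3% in vehicle. In them 37.1% of mSTAR1302 and 55.2% of vehicle barcodes had at least 5 members, 17.1% and 38.8% held a Foxp3 UMI despite the CD8 gate, and macrophage markers summed to 1032 and 5719 CPM. Without these barcodes the 40 genes summed to 1114 CPM in mSTAR1302 and 949.9 CPM in vehicle and the share with at least 5 members differed by 4.14 percentage points (8.93% against 4.80%). The limit of 30000 UMIs is fixed and not scaled to the depth of each library. It removed 13 of the 511 CD8 cells with at least 5 members in mSTAR1302 and 37 of the 146 in vehicle. Its part in these values was not tested. Leaving out CD8 barcodes with 2 or more macrophage marker UMIs, an alternative chosen after seeing the data, turned the sum in the same way, to 1139 CPM in mSTAR1302 and 982 CPM in vehicle. It dropped 185 of 6290 barcodes in mSTAR1302 and 549 of 2460 in vehicle. The cut is a fixed count not scaled to depth, and its link with depth was not tested. The member median was then 0.42, against -0.12 over all genes tested, with 11 members at least 1.5-fold higher and 2 lower, against 2.86% and 10.5% of those genes, and the share differed by 4.15 percentage points (9.02% against 4.87%).

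Gene by gene, no member was at least 1.5-fold higher in CD8 cells of mSTAR1302 and 5 of 40 were at least 1.5-fold lower, Cenpa, Kif15, Anln, Ccnb1 and Plk1. Over all 15112 genes tested, 2.26% were that much higher and 16.1% that much lower, so 5 of 40 is near the background. The median log2 ratio was -0.12 over the members and -0.17 over all genes. Without the barcodes above 30000 UMIs, 36 of 40 members lay above 0, with a median of 0.50, against -0.144 over all genes. Then 11 were at least 1.5-fold higher (Birc5, Cenpf, Ube2c, Ccnb2, Bub1, Kif23, Kif4, Spc24, Spc25, Hmmr and Sgo1), against 2.77% of all genes. Only Cenpa and Kif15 stayed at least 1.5-fold lower in that comparison, against 12.8% of all genes. The limit removed a larger share of the vehicle cells with at least 5 members, as given above, and its part in these ratios was not tested. Over the 5 settings compared gene by gene (all barcodes, without barcodes over 30000 UMIs, without Foxp3 UMIs, thinned, stricter gates), Birc5, Cenpf, Ect2, Kif23, Kif4, Knl1, Mki67, Sgo1, Spc24 and Top2a were above 0 in each, and Anln, Cenpa, Ckap2 and Kif15 below 0 in each. With all barcodes 26.8% of all genes lay above 0. The share of all genes that kept 1 side in each setting is not given, and the settings reuse the same barcodes.

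**Figure D2:**
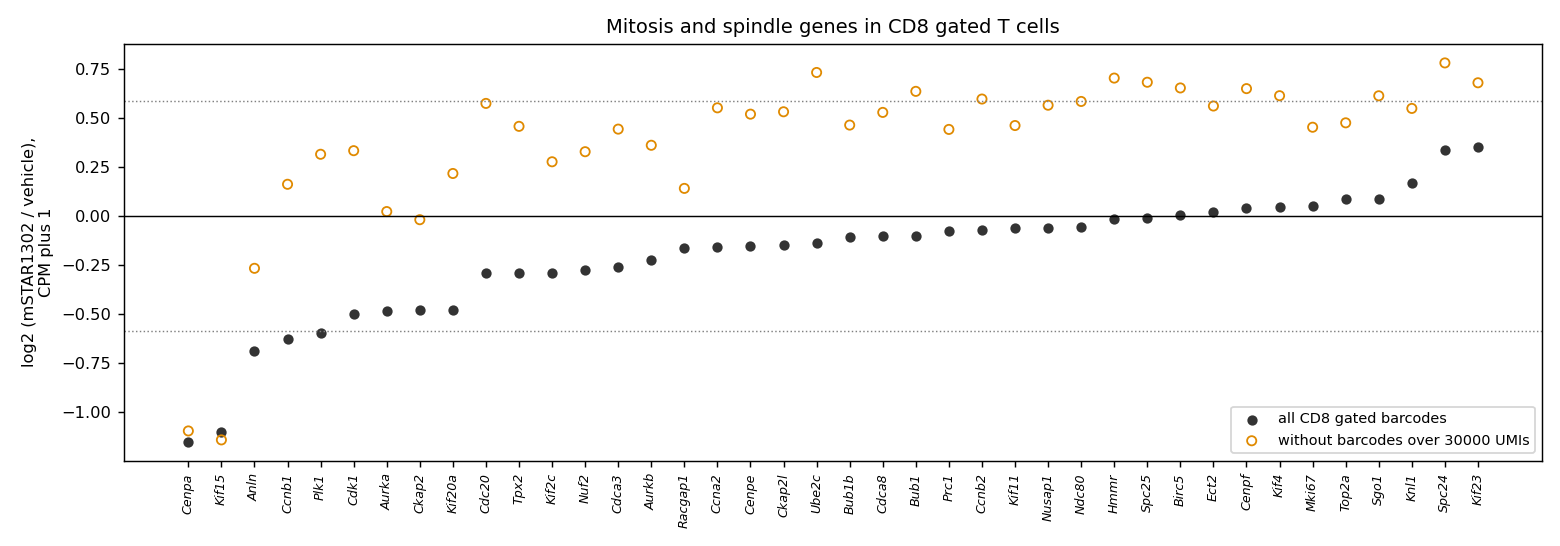
Log2 ratio of mSTAR1302 over vehicle (vertical axis, CPM plus 1) for each of the 40 genes (horizontal axis, ordered by the ratio over all barcodes) in CD8 gated T cells. Filled points use all barcodes and open points leave out those above 30000 UMIs, and dotted lines mark 1.5-fold. The members' median is 0.50 in the open points and -0.12 in the filled points, while Cenpa and Kif15 stay near -1.1.

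Cdk1, the kinase that starts mitosis, was at 21.6 CPM in mSTAR1302 CD8 cells (1056 UMIs) and 31.1 CPM in vehicle (899 UMIs), a log2 ratio of -0.50. Ccnb1, its cyclin B1 partner, was at 6.72 CPM (328 UMIs) against 10.9 CPM (316 UMIs), 1.62-fold lower (1.39 to 1.902). Ccnb2 and Ccna2, cyclins B2 and A2, differed little, at 24.1 and 21.5 CPM in mSTAR1302 against 25.4 and 24.05 CPM in vehicle. Without the deepest barcodes Cdk1 lay at 20.0 CPM in mSTAR1302 and 15.7 CPM in vehicle, and Ccnb1 at 6.24 and 5.48 CPM. So neither gene's lower level held in that comparison. Of the mitotic kinases Plk1, which acts from centrosomes to the contractile ring, was at 5.29 CPM against 8.50 CPM, 1.61-fold lower (1.34 to 1.92). Aurka, the spindle pole Aurora kinase, was at 6.17 against 9.02 CPM. Aurkb of the chromosomal passenger complex and the checkpoint kinases Bub1 and Bub1b lay between -0.23 and -0.10 on the log2 scale.

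Of the genes around the anaphase promoting complex, Cdc20, its activator, was at 15.1 CPM in mSTAR1302 and 18.7 CPM in vehicle. Ube2c, its ubiquitin conjugating enzyme, was at 54.6 against 60.2 CPM with all barcodes and at 51.5 against 30.7 CPM without the deepest. Cdca3, a target of the complex, was at 17.8 against 21.6 CPM. Birc5, or survivin, was level at 60.7 CPM in mSTAR1302 (2964 UMIs) and 60.6 CPM in vehicle (1755 UMIs), a ratio of 1.00 (0.944 to 1.06). It became 1.59-fold higher (1.47 to 1.71) once the deepest barcodes were left out, at 58.3 against 36.8 CPM. Cdca8, or borealin, and Sgo1, which guards cohesion at the centromere, lay at -0.10 and 0.09 on the log2 scale.

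Among kinetochore genes Spc24, a subunit of the Ndc80 complex that grips microtubules, was at 37.1 CPM in mSTAR1302 (1812 UMIs) and 29.2 CPM in vehicle (846 UMIs), 1.27-fold higher (1.17 to 1.38). Its partner subunits Ndc80, Nuf2 and Spc25 lay at -0.06, -0.28 and -0.01 on the log2 scale. Knl1, the scaffold that docks checkpoint proteins, was at 22.4 against 19.8 CPM, 1.13-fold higher (1.02 to 1.25). Cenpe, a motor at the kinetochore, was at 31.2 against 34.8 CPM, and Cenpf, a large kinetochore protein, at 44.2 against 42.9 CPM. Cenpa, the histone H3 variant that marks centromeres, lay apart from these, at 89.0 CPM in mSTAR1302 (4344 UMIs) against 199 CPM in vehicle (5753 UMIs), 2.23-fold lower (2.15 to 2.32). The intervals of its levels, 86.4 to 91.7 and 194 to 204 CPM, lie far apart.

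Among the kinesin motors Kif23, which builds the central spindle, had the highest ratio of all 40 genes, at 31.8 CPM in mSTAR1302 (1550 UMIs) and 24.7 CPM in vehicle (715 UMIs), 1.29-fold higher (1.18 to 1.41). Kif15, a motor that helps keep spindle poles apart, was at 31.4 CPM (1533 UMIs) against 68.7 CPM (1987 UMIs), 2.18-fold lower (2.04 to 2.34). Kif11, the main motor for pole separation, was at 27.4 against 28.7 CPM. Kif4 and Kif2c lay at 0.04 and -0.29 on the log2 scale, and Kif20a at -0.48. The 6 spindle microtubule proteins Tpx2, Nusap1, Prc1, Hmmr, Ckap2 and Ckap2l lay between -0.48 (Ckap2) and -0.01 (Hmmr). Of the cytokinesis genes Anln, the ring scaffold anillin, was at 5.00 CPM (244 UMIs) against 8.67 CPM (251 UMIs), 1.73-fold lower (1.45 to 2.08), and at 4.32 against 5.40 CPM without the deepest barcodes. Racgap1, the partner of Kif23, and Ect2, which activates RhoA at the cell equator, lay at -0.16 and 0.02. Mki67, which coats mitotic chromosomes, was at 122 CPM in mSTAR1302 (5938 UMIs) and 117 CPM in vehicle (3394 UMIs), and Top2a, which untangles DNA, at 156 (7613 UMIs) and 147 CPM (4250 UMIs). Their ratios were 1.04 (0.995 to 1.08) and 1.06 (1.02 to 1.10), and without the deepest barcodes they were 119 against 86.7 CPM for Mki67 and 153 against 109.9 CPM for Top2a. Kif15 shares its strand with Gm47148 and Anln with Gm48646 in the annotation, and 15 of the 40 genes overlap a gene on the other strand. No source used here says whether strand was used in counting.

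Cenpa and Kif15 had the widest gaps between the libraries in CD8 cells that held few other members. In CD8 cells with under 5 other members, Cenpa was at 60.8 CPM in mSTAR1302 and 171 CPM in vehicle, 2.82-fold lower (2.68 to 2.96), and was found in 13.5% and 34.2% of these cells at 3000 UMIs each. Kif15 there was at 15.3 against 62.0 CPM, 4.04-fold lower (3.68 to 4.44), and was found in 3.78% and 15.1% of the cells. In CD8 cells with at least 5 other members the gap was smaller for Cenpa, at 258 against 382 CPM, and absent for Kif15, at 127 against 113 CPM, a ratio of 1.12 (0.997 to 1.26). Read from the gene's side, 24.1% of Cenpa-holding CD8 cells in mSTAR1302 and 9.51% in vehicle had at least 5 other members. For Kif15 these were 45.5% and 12.2%, while the median over the 40 genes was 74.4% and 66.8%. Other members were also found often without the rest: in mSTAR1302 Aurka (29.4%), Kif23 (39.8%), Top2a (40.2%) and Racgap1 (43.8%) lay below Kif15, and in vehicle these were 26.1%, 32.8%, 31.3% and 31.0%. The most bound to the other members were Hmmr, Cenpf, Ccna2 and Kif2c in mSTAR1302, and Hmmr, Kif2c, Nuf2 and Bub1 in vehicle. In near-empty droplets Cenpa was at 129 CPM (59.0 to 245) in mSTAR1302 and 109 CPM (54.5 to 195.3) in vehicle, and Kif15 at 28.7 CPM (3.48 to 104) and 49.6 CPM (16.1 to 116). In CD4 cells with Foxp3 that held under 5 other members Cenpa was at 88.9 CPM in mSTAR1302 against 74.5 CPM in vehicle, a ratio of 1.19 (0.940 to 1.499). Kif15 there was at 7.50 CPM (7 UMIs) against 11.5 CPM (116 UMIs), a ratio of 0.654 (0.257 to 1.39) too wide to show whether a gap was present. In CD4 cells without Foxp3 that held under 5 other members Cenpa was lower, at 42.4 against 60.2 CPM, a ratio of 0.704 (0.580 to 0.853). Kif15 there was at 4.89 CPM (23 UMIs) against 6.14 CPM (24 UMIs), a ratio of 0.798 (0.430 to 1.48).

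**Figure D3:**
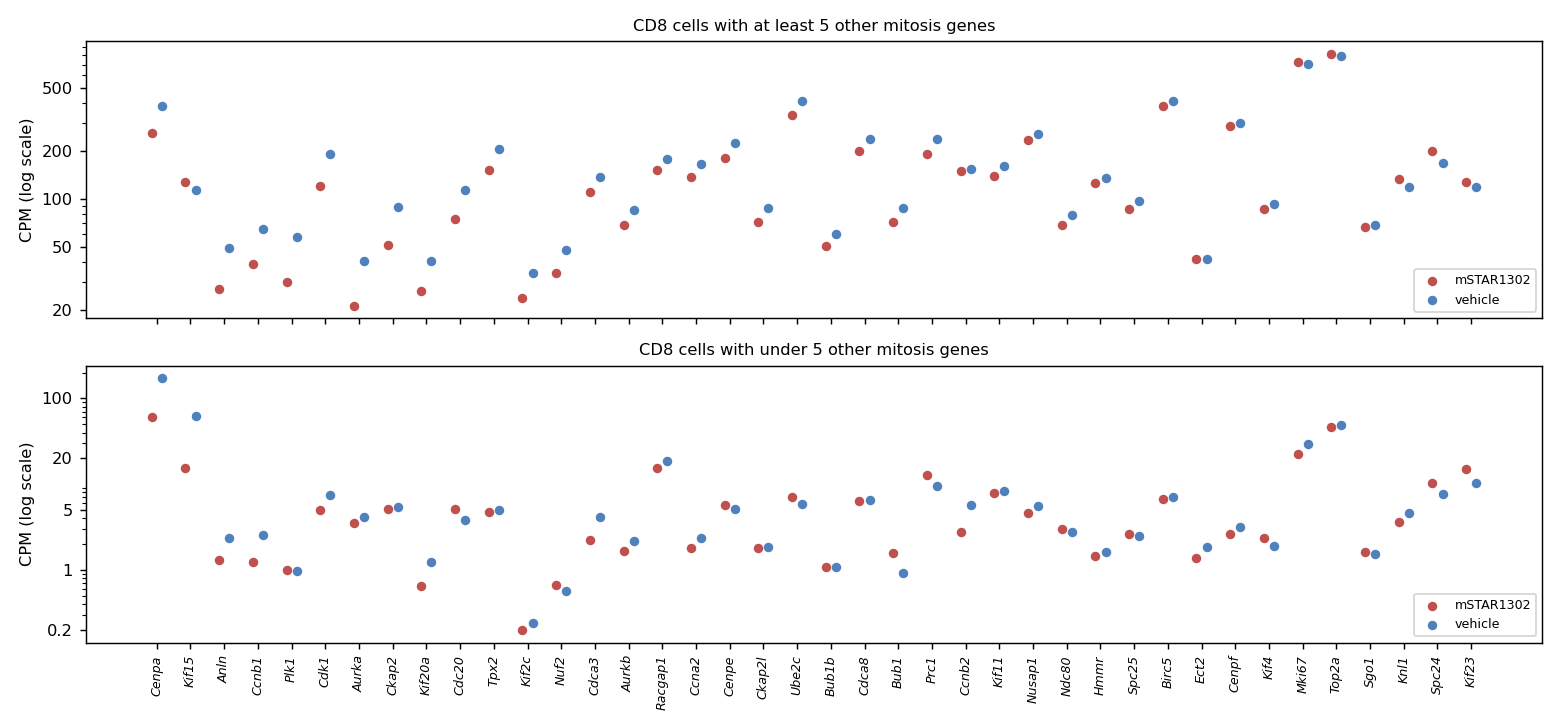
Level of each of the 40 genes (vertical axes, CPM on a log scale) in CD8 cells with at least 5 other members (upper panel) and under 5 other members (lower panel), mSTAR1302 in red and vehicle in blue, genes ordered as in the plot of CD8 ratios. In the lower panel Cenpa (60.8 and 171 CPM) and Kif15 (15.3 and 62.0 CPM) are the members furthest apart between the libraries.

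Within CD8 cells with at least 5 members the summed level of the 40 genes was lower in mSTAR1302. It was 6188 CPM in mSTAR1302 and 7012 CPM in vehicle, and over the remaining cells 286 and 458 CPM. In the cells with at least 5 members, macrophage and monocyte markers summed to 20.0 CPM in mSTAR1302 and 1253 CPM in vehicle. Dendritic cell markers there summed to 20.6 and 549 CPM, while T cell markers lay the other way, at 5547 and 4423 CPM. The part of RNA from other cells in this gap was not tested. Cells with at least 5 members held 79.3% of the member UMIs of CD8 cells of at least 3000 UMIs in mSTAR1302 and 70.5% in vehicle. In cells with at least 5 other members, 33 of 40 genes lay below 0 and 8 were at least 1.5-fold lower and 0 higher, with a median log2 ratio of -0.26. Over all 11887 genes tested in CD8 cells with at least 5 members, 25.3% were that much lower and 8.49% higher and the median was -0.17, so 8 of 40 does not exceed the background. Plk1 was lowest there, at 30.0 CPM against 57.4 CPM, 1.92-fold lower (1.58 to 2.32), followed by Aurka at 21.3 against 40.6 CPM. Barcodes above 30000 UMIs were 13 of the 511 mSTAR1302 and 37 of the 146 vehicle CD8 cells with at least 5 members. The levels within these cells are not given without them. CD8 gated cells with a Foxp3 UMI made up 3.05% of the CD8 cells of at least 3000 UMIs in mSTAR1302 and 16.3% in vehicle. Of those with Foxp3, 10.53% (6.36 to 16.1) and 12.9% (9.67 to 16.6) had at least 5 members, and of those without it 9.06% (8.31 to 9.86) and 4.95% (4.03 to 6.01). Without them the 40 genes summed to a log2 ratio of -0.03 and the share differed by 4.11 percentage points.

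Of the 3 gates, CD4 cells with a Foxp3 UMI had the highest share of cells with at least 5 members in both libraries. At least 5 members were found in 20 of 134 of these cells (14.9%, 9.36 to 22.1) in mSTAR1302 and in 209 of 1289 (16.2%, 14.2 to 18.3) in vehicle, a difference of -1.29 percentage points (-6.76 to 5.97). The vehicle share is above the 8.11% of the macrophage-marker barcodes but inside its interval (3.03 to 16.8), and the mSTAR1302 share is just below the limit of 15%. This comparison does not decide whether either share exceeds background. The interval of the difference spans 0 and is wide, with 146 such cells before the depth limit in mSTAR1302 and 1365 in vehicle. The 40 genes summed to 2098 CPM in mSTAR1302 and 2564 CPM in vehicle, a ratio of 0.818 (0.786 to 0.851). The median log2 ratio was -0.28 over the members and -0.17 over all genes. Macrophage markers summed to 12.8 CPM in mSTAR1302, with 6 of 10 (Csf1r, C1qa, C1qc, Adgre1, Fcgr1 and Ms4a7) at 0, and to 345 CPM in vehicle with 10 of 10 seen. Without barcodes holding 2 or more of these UMIs the summed log2 ratio was -0.28, against -0.29 with all barcodes.

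In these Foxp3 cells 1 member was at least 1.5-fold higher in mSTAR1302 and 5 were at least 1.5-fold lower, against 4.9% and 20.7% of all 12374 genes tested. Kif2c, a kinesin that takes microtubule ends apart, was at 16.8 CPM (21 UMIs) in mSTAR1302 and 8.66 CPM (125 UMIs) in vehicle, 1.94-fold higher (1.16 to 3.10). At 3000 UMIs a cell 4 mSTAR1302 cells and 22 vehicle cells held it, so few cells carry this value. Anln was at 3.21 CPM (4 UMIs) against 8.46 CPM (122 UMIs), 2.63-fold lower (1.00 to 9.83). Ccna2 was at 32.9 CPM (41 UMIs) against 57.6 CPM (831 UMIs), 1.75-fold lower (1.28 to 2.46). Kif15 was at 27.3 CPM (34 UMIs) against 46.7 CPM (673 UMIs), 1.71-fold lower (1.21 to 2.49). Nusap1, which bundles spindle microtubules, and Racgap1 were 1.66-fold and 1.61-fold lower. Mki67 was at 266 against 341 CPM and Top2a at 282 against 364 CPM (1.28-fold and 1.29-fold lower). Cdk1 was at 41.7 against 54.4 CPM, Birc5 at 113 against 136 CPM and Ccnb1 at 21.7 against 24.3 CPM. Aurka at 13.6 against 12.5 CPM and Sgo1 at 23.3 against 21.8 CPM had, after Kif2c, the highest ratios, and both have intervals that include 1. The 34 members between the calls reached from -0.58 (Bub1 and Knl1) to 0.12 (Aurka). By role, the cytokinesis genes had the lowest sum ratio, at 50.5 CPM against 81.4 CPM (0.621, 0.474 to 0.800), and the genes around the anaphase promoting complex the highest, at 169 against 173 CPM (0.980, 0.848 to 1.13).

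CD4 cells without a Foxp3 UMI had the lowest share. At least 5 members were in 27 of 690 (3.91%, 2.59 to 5.64) in mSTAR1302 and in 20 of 545 (3.67%, 2.26 to 5.61) in vehicle, a difference of 0.24 percentage points (-2.03 to 2.39). The vehicle share lies below that of the macrophage-marker barcodes given above, and the mSTAR1302 share below the limit that 0 of 20 allows. Here too, this does not decide whether either share exceeds background. Within each library the CD4 shares with and without Foxp3 have intervals that do not overlap. The shares were 16.2% and 3.67% in vehicle and 14.9% and 3.91% in mSTAR1302. These intervals cover counting error in 1 library only, and the difference between gates was not tested. The 40 genes summed to 676 CPM in mSTAR1302 and 740.0 CPM in vehicle, a ratio of 0.913 (0.870 to 0.958), and the median log2 ratio was -0.14, against -0.28 over all genes. None of the 40 was at least 1.5-fold higher and 2 were at least 1.5-fold lower, against 2.86% and 26.1% of all 11470 genes tested. Bub1, a spindle checkpoint kinase, was at 3.25 CPM (17 UMIs) against 6.94 CPM (30 UMIs), 2.13-fold lower (1.14 to 4.12). Ckap2, a microtubule-binding protein, was at 4.40 CPM (23 UMIs) against 7.41 CPM (32 UMIs), with a ratio interval of 0.332 to 1.05 that includes 1. Knl1 was at 10.1 against 15.5 CPM. Ube2c had the highest ratio, at 36.4 CPM (190 UMIs) against 24.3 CPM (105 UMIs), 1.496-fold (1.17 to 1.92), just short of the call on the scale with 1 CPM added. Cdc20 and Cdk1 came next, at 9.19 against 6.71 CPM and at 15.5 against 12.5 CPM, with intervals that include 1. Mki67 was at 60.7 against 76.4 CPM, Top2a at 97.8 against 107 CPM, Birc5 at 35.2 against 34.5 CPM and Ccnb1 at 5.93 against 6.25 CPM. Macrophage markers summed to 85.0 CPM in mSTAR1302 and 1349.7 CPM in vehicle, with 10 of 10 seen in both. Over the cells with at least 5 members these markers summed to 17.0 CPM in mSTAR1302 and 5004 CPM in vehicle. Dendritic cell markers there summed to 27.2 and 1999 CPM, while EMT6 tumour and epithelium markers lay the other way, at 252 and 33.9 CPM. The part of RNA from other cells in these shares was not tested. The other 38 members reached from -0.57 (Knl1) to 0.56 (Ube2c). By role, the genes around the anaphase promoting complex had the highest sum ratio, at 56.1 CPM against 44.2 CPM (1.27, 1.05 to 1.53), and the cytokinesis genes the lowest, at 24.7 against 31.2 CPM (0.790, 0.616 to 1.013). The markers of EMT6 tumour and epithelium summed to 478 and 83.6 CPM, with Krt19 at 0 in both, and their part was not tested. Without barcodes holding 2 or more macrophage marker UMIs the summed log2 ratio was -0.24, against -0.13 with all barcodes.

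T cells with at least 5 members lay mostly in different gates in the libraries. Of 660 T cells with at least 5 members in mSTAR1302, 77.4% were CD8, 3.03% CD4 with Foxp3, 4.09% CD4 without, 12.3% held UMIs of both Cd4 and Cd8, and 3.18% of neither. Of 636 in vehicle, 23.0% were CD8, 32.9% CD4 with Foxp3, 3.14% CD4 without, 33.6% both and 7.39% neither. The gates' shares of all T cells of at least 3000 UMIs differed in the same direction, with 73.7% CD8 and 1.76% CD4 with Foxp3 in mSTAR1302, against 38.05% and 21.0% in vehicle. Shares of gates in these libraries also carry the bead selection and the barcode filters.

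**Figure D4:**
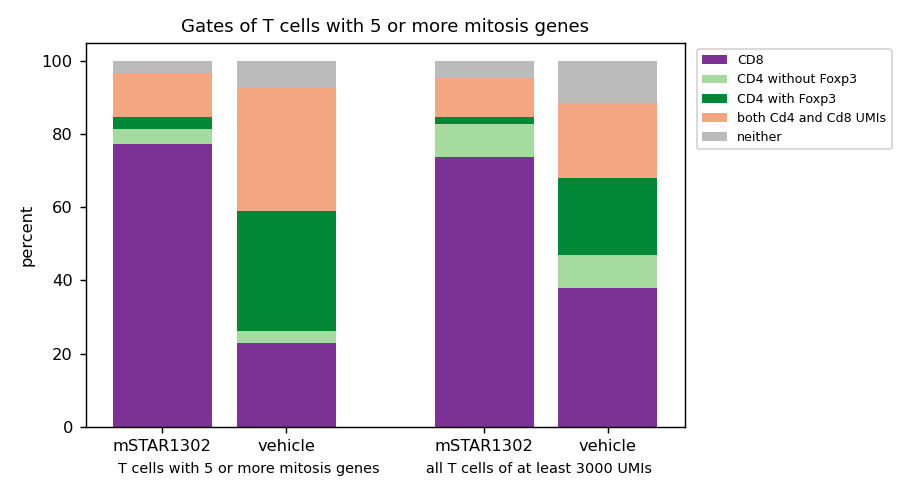
Percent of T cells (vertical axis) in each gate, for T cells with at least 5 of the 40 genes (left pair of bars) and for all T cells of at least 3000 UMIs (right pair), mSTAR1302 left of vehicle. CD8 cells are 77.4% of the T cells with at least 5 members in mSTAR1302 and 23.0% in vehicle, and CD4 cells with Foxp3 are 3.03% and 32.9%.

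S phase genes, a list of 48 replication genes outside the 40, were read in the same cells. Of CD8 cells with at least 5 members, 84.7% (81.3 to 87.7) in mSTAR1302 and 84.9% (78.1 to 90.3) in vehicle also held at least 5 S phase genes, a difference of -0.20 percentage points (-6.15 to 7.08). At least 5 S phase genes were held by 22.6% of all CD8 cells in mSTAR1302 and 17.6% in vehicle, a difference of 5.04 percentage points (3.12 to 6.90). The members differed in how often they came with S phase genes. For each member this was read in CD8 cells that held it and at least 5 other members. Among such cells with Kif15, 95.7% in mSTAR1302 and 97.8% in vehicle had at least 5 S phase genes. Among such cells with Cdc20, 71.7% and 60.9% did. For Ccnb1 these were 70.2% and 64.7%, of 47 and 17 cells, while the Cdc20 values rest on 99 and 23 cells. The order of members differed between the libraries. Ckap2 was lowest in mSTAR1302, at 67.9% of 81 cells, but stood at 96.7% of 30 cells in vehicle. In CD4 cells without Foxp3 the share with at least 5 S phase genes was 9.57% in mSTAR1302 and 13.6% in vehicle, a difference of -4.01 percentage points (-7.72 to -0.44).

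CD8 cells with a UMI of Trbv13-2 or Trbv13-3, variable segments of the T cell receptor beta chain, held more of the 40 genes than CD8 cells without. In mSTAR1302, 805 CD8 cells had such a UMI and 5485 had none. The 40 genes summed to 1669.8 CPM with the segment and 1051 CPM without, a ratio of 1.59 (1.56 to 1.62). All 40 members lay above 0, against 52.4% of all 13750 genes tested. Of the 40 members 23 were at least 1.5-fold higher, against 1.4% of those genes. None was that much lower, against 4.7% of all genes. At least 5 members were in 104 of 785 cells with the segment (13.2%, 11.0 to 15.8) and in 407 of 4825 without (8.44%, 7.67 to 9.26), a difference of 4.81 percentage points (2.47 to 7.47). Cells with the segment were deeper, with a median of 8329 UMIs against 6320.0. CD8 cells with a UMI of any Trbv segment, set against those with none, also differed in depth (8399 and 6010.0 UMIs) and in this share (11.5% and 8.20%). CD8 cells with a UMI of another Trbv segment had a similar depth, 8469 UMIs, and are the closer comparison. Against them the sum was 1669.8 and 1182 CPM, 1.41-fold, and at 3000 UMIs a cell 1129 and 864 CPM, 1.31-fold. The shares with at least 5 members were 13.2% and 9.66%, a difference of 3.59 percentage points (0.41 to 6.77).

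By gene, Ccnb2 had the highest ratio in mSTAR1302, at 47.3 CPM with the segment (368 UMIs) and 19.7 CPM without (810 UMIs), 2.40-fold (2.11 to 2.71). Cdc20 followed at 25.8 against 13.02 CPM, 1.98-fold (1.68 to 2.34). Mki67 was at 187 against 109 CPM, 1.71-fold (1.61 to 1.81), and Top2a at 224 against 143 CPM, 1.57-fold (1.49 to 1.66). The lowest ratios were those of Cenpa, at 97.4 against 87.4 CPM, and of Ckap2, at 13.5 against 11.4 CPM. By role, none of the 6 kinesin motors passed 1.5-fold, while all 3 genes around the anaphase promoting complex did. Trbv13-2 and Trbv13-3 differed between themselves, with at least 5 members in 48 of 271 cells (17.7%, 13.4 to 22.8) and 60 of 534 (11.2%, 8.68 to 14.2). The other segments found in at least 50 such cells ranged between 6.56% (Trbv14) and 16.7% (Trbv29).

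The vehicle library had 101 CD8 cells with Trbv13-2 or Trbv13-3 and 2359 without. The 40 genes summed to 2031 CPM with the segment and 1305 CPM without, a ratio of 1.56 (1.497 to 1.62). There 27 members were at least 1.5-fold higher with the segment, against 5.81% of all 13834 genes tested, and 0 lower, against 17.8%. Kif4, a chromosome-bound kinesin, was highest at 30.1 against 13.3 CPM, 2.27-fold (1.61 to 3.12), and Knl1 next at 41.6 against 18.7 CPM, 2.22-fold (1.66 to 2.92). Mki67 was at 184 against 114 CPM and Top2a at 226 against 143 CPM. Ect2, Spc25 and Anln lay below 0, and Ect2 and Spc25 were lowest, at 5.02 against 7.30 CPM and at 13.6 against 15.1 CPM. At least 5 members were in 10 of 100 cells with the segment (10%, 4.90 to 17.6) and 136 of 2240 without (6.07%, 5.12 to 7.14), a difference of 3.93 percentage points (-0.67 to 11.4). Against vehicle CD8 cells with another Trbv segment only (7.41%) the difference was 2.59 percentage points (-2.61 to 10.3). Without barcodes above 30000 UMIs the summed log2 ratio was 0.20 in place of 0.64, with 6 members at least 1.5-fold higher and 6 lower, against 6.18% and 15.1% of all 13104 genes tested. Between libraries, CD8 cells with the segment had at least 5 members in 13.2% of mSTAR1302 and 10% of vehicle cells, a difference of 3.25 percentage points (-4.50 to 8.40).

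**Figure D5:**
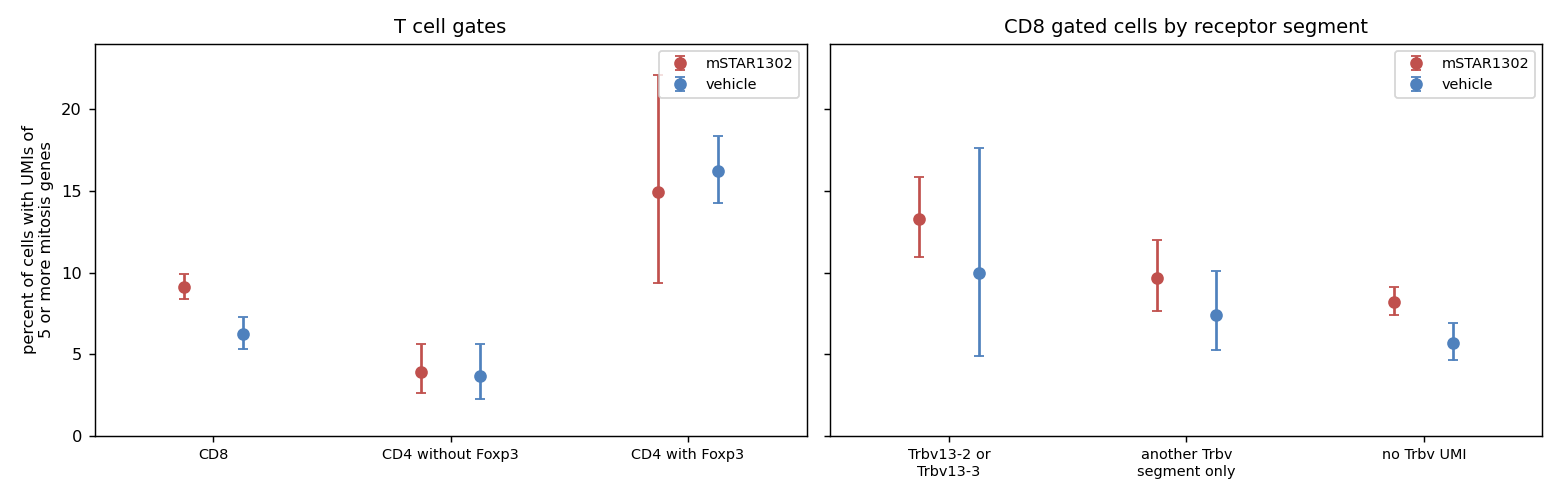
Percent of cells with UMIs of at least 5 of the 40 genes (vertical axis, each cell thinned to 3000 UMIs, bars are 95% exact binomial intervals) by T cell gate (left) and by receptor segment among CD8 cells (right), mSTAR1302 in red left of vehicle in blue. CD4 cells with Foxp3 are highest in both libraries (14.9% and 16.2%), and CD8 cells with Trbv13-2 or Trbv13-3 reach 13.2% in mSTAR1302.

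Other genes of the cell cycle were counted by list. In CD8 cells, 0 of 69 further mitosis genes were at least 1.5-fold higher in mSTAR1302 and 2 were lower (Pimreg, at 4.41 against 8.02 CPM, and the tubulin gene Tuba1c, at 47.9 against 77.2 CPM), with a median log2 ratio of -0.03, against 2.26% higher and 16.1% lower over all genes. Of 48 S phase genes 1 was higher, the replication licensing factor Cdc6, at 7.91 against 4.49 CPM, and 0 lower, with a median of 0.15. Of 15 genes of cell cycle exit and restraint 1 was higher, Cdkn1a, the CDK inhibitor p21, at 73.8 against 38.8 CPM, and 0 lower. Of 12 regulators of G1 phase and growth 0 were higher and 2 lower, the D-type cyclins Ccnd1, at 5.23 against 20.9 CPM, and Ccnd2, at 248 against 438 CPM. In CD4 cells with Foxp3 the further mitosis genes had 1 higher and 9 lower (median -0.27) and the S phase genes 0 higher and 3 lower (median -0.14), against 4.9% higher and 20.7% lower over all genes. In CD4 cells without Foxp3 they had 2 higher and 7 lower of 68 measured (median -0.21), and 0 higher and 9 lower of 47 (median -0.35), against 2.86% and 26.1% of all genes, so the lower counts do not exceed the background. With Trbv13-2 or Trbv13-3 in mSTAR1302, 15 of 69 further mitosis genes and 5 of 48 S phase genes were higher and 0 lower, with medians of 0.41 and 0.27, against 0.64 over the 40 members and 0.01 over all genes, of which 1.4% were higher and 4.7% lower. In vehicle 25 of 69 were higher and 1 lower (median 0.43), and 15 of 48 higher and 0 lower (median 0.32), against 5.81% higher and 17.8% lower over all genes.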

How the data were processed

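Single-cell RNA was measured in T cells of 1 mSTAR1302 and 1 vehicle library, with groups from the labels. The authors deposited unfiltered matrices of UMI counts (whole numbers, per gene and barcode), made with Cell Ranger on mm10. Per the file headers the version was 4, and per the submitters' processing notes it was 6.0.1. The notes also name FastQC, MultiQC 1.9 and Seurat, and per the labels' protocols sequencing aimed at 50000 reads per cell. No source used here names the annotation, and positions are from GENCODE M21.

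Gates were set on transcripts: at least 2 UMIs of Cd3d, Cd3e and Cd3g, then at least 1 UMI of Cd8a or Cd8b1 with no Cd4 for CD8, and the reverse for CD4. UMIs were summed per gate and library to CPM, and log2 ratios used a pseudocount of 1 CPM for genes with at least 10 UMIs on the 2 sides together. Intervals are exact Poisson for CPM, conditional binomial for ratios, Clopper-Pearson for shares and Newcombe for differences of shares. The 1.5-fold call is a size and not a test. No doublet caller was run, and leaving out barcodes over 30000 UMIs was an alternative. Macrophage-marker barcodes served as background for shares of cells, chosen after seeing the data in place of a planned set that is not reported here. Each comparison names Mki67, Top2a, Cdk1, Ccnb1, Birc5 and the 3 highest and 3 lowest members, the Trbv ones Mki67, Top2a and the 2 highest and 2 lowest, and the others by role. The members and lists were chosen with earlier results of these data known. The alternatives without Cenpa and Kif15 and without barcodes of 2 or more macrophage marker UMIs were chosen after seeing the data. The steps were tested on simulated data. Computation used SciPy 1.17.1 for intervals, pandas 2.3.3 and NumPy 2.4.6 for sums, matplotlib 3.10.9 for plots, and Python 3.11.15.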

Additional observations from a re-analysis of the deposited data

Results flagged for a closer look

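Kif2c had log2 ratios of opposite sign between gates. Its ratio in CD4 cells with Foxp3 was 0.89, against -0.29 in the CD8 gate and -0.28 in the CD4 gate without Foxp3, differences of 1.17 and 1.17 on the log2 scale. The value without Foxp3 rests on 8 UMIs in mSTAR1302 and 9 in vehicle, with a ratio interval of 0.247 to 2.15 that includes 1. Without barcodes over 30000 UMIs the CD8 value was 0.28. The difference between gates was not tested.

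The share of cells with at least 5 members also moved in opposite directions. It was 2.87 percentage points higher in mSTAR1302 in CD8 cells and differed by -1.29 points in CD4 cells with Foxp3, which differ by 4.16 percentage points. For CD4 cells without against with Foxp3 the gap was 1.53 percentage points. These differences between gates were not tested, and the intervals of both CD4 values include 0.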

How the results depend on the processing

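Over 207 alternatives, 133 results were classed as unchanged, 63 as moved and 11 as reversed, and the causes were not tested. Sign changes in results whose reported interval included 0 were not classed as reversed. For the summed log2 ratio in CD8 cells the values were -0.048 with every cell thinned to 3000 UMIs, -0.077 with median ratio scaling, -0.20 at a limit of 5% mitochondrial UMIs, -0.036 with stricter gates, -0.027 without Foxp3 UMIs, -0.060 without Cenpa and Kif15, 0.23 without barcodes over 30000 UMIs and 0.21 without barcodes holding macrophage marker UMIs. The CD8 member median was 0.24, 0.013, 0.14, 0.15, 0.50 and 0.42 with thinning, median ratio scaling, stricter gates, no Foxp3 UMIs, no barcodes over 30000 UMIs and no barcodes with macrophage marker UMIs. Median ratio scaling put the median of all genes at -0.062. The CD8 members past 1.5-fold, 5 as reported, numbered 2 with median ratio scaling, stricter gates, a pseudocount of 5 CPM or a limit of 2-fold, 3 without Foxp3 UMIs or without Cenpa and Kif15, and 13 (11 higher, 2 lower) without barcodes over 30000 UMIs and likewise without macrophage marker UMIs. Over all genes, 3.43% were higher and 13.2% lower with median ratio scaling. With stricter gates these were 2.62% and 14.0%, and without Foxp3 UMIs 2.64% and 14.6%. Where no such share is given, here or above, a count cannot be set against a background. The CD8 share difference was 4.14 percentage points without barcodes over 30000 UMIs, 4.11 without Foxp3 UMIs, 4.15 without macrophage marker UMIs, 0.97 at 1000 UMIs a cell, -0.68 at 3 members a cell and -5.11 without thinning.

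In CD4 cells without Foxp3 the summed log2 ratio was 0.082 with median ratio scaling, -0.22 at 5% mitochondrial UMIs, -1.4e-05 with stricter gates and -0.24 without macrophage marker UMIs. The member median was 0.074 with median ratio scaling and 0.0036 with stricter gates. The share difference was -1.16 percentage points at 3 members a cell and -1.59 without thinning, and above 0 in the other settings. All intervals of this difference include 0. Members past 1.5-fold numbered 12 (6 higher, 6 lower) with thinning, 7 at 5% mitochondrial UMIs, 6 with stricter gates, 1 with at least 50 UMIs a gene, and 0 at a pseudocount of 5 CPM or at 2-fold. In CD4 cells with Foxp3 the summed log2 ratio was -0.15 with thinning, -0.16 with median ratio scaling, -0.45 at 5% mitochondrial UMIs, -0.18 with stricter gates and -0.21 without barcodes over 30000 UMIs. The member median was -0.10, -0.15, -0.39 and -0.076 under thinning, scaling, 5% mitochondrial UMIs and stricter gates. The share difference with Foxp3 was 1.44 percentage points at 10 members a cell and 0.996 at 1000 UMIs a cell. It was 0.41 without macrophage marker UMIs, 0.012 without barcodes over 30000 UMIs, and below 0 in the other settings. All intervals of this difference include 0. Members past 1.5-fold numbered 13 (3 higher, 10 lower) with thinning, against 8.24% higher and 25.7% lower over all genes. Without barcodes over 30000 UMIs they numbered 3 (1 higher, 2 lower), against 5.13% and 20.5%. They numbered 13 at 5% mitochondrial UMIs and 1 at 2-fold.

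With Trbv13-2 or Trbv13-3 in mSTAR1302 the summed log2 ratio was 0.53 with thinning, 0.63 with median ratio scaling, 0.63 without barcodes over 30000 UMIs, 0.50 against other Trbv segments, 0.72 without Cenpa and Kif15 and 0.61 without macrophage marker UMIs. The member median was 0.49 with thinning, 0.52 at a pseudocount of 5 CPM and 0.52 against other Trbv segments, and members past 1.5-fold numbered 1 at 2-fold and 15 against other segments. In vehicle the summed log2 ratio was 0.43 with thinning, 0.89 with stricter gates, 0.20 without barcodes over 30000 UMIs, 0.70 without Cenpa and Kif15 and 0.88 without macrophage marker UMIs. The member median was 0.38, 1.00, 0.20 and 1.009 under thinning, stricter gates, no barcodes over 30000 UMIs and no macrophage marker UMIs, and members past 1.5-fold numbered 12 without barcodes over 30000 UMIs and 5 at 2-fold.

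With 1 library a group, treatment, animals, preparation and sequencing run cannot be told apart, and no interval covers differences between mice. At least 2 macrophage marker UMIs were in 2.94% of CD8 barcodes in mSTAR1302 and in 22.3% in vehicle. Gates on few transcripts miss cells whose transcript was not captured. CD4 cells with Foxp3 in mSTAR1302 and CD8 cells with Trbv13 segments in vehicle were few, so members at under 10 CPM there rest on a few UMIs. No paired analysis was possible because each group has 1 library.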

Other observations

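T cells outside the 3 gates also held many of the 40 genes in some cells. Where UMIs of both Cd4 and Cd8 were found, at least 5 members were in 81 of 813 cells (9.96%, 7.99 to 12.2) in mSTAR1302 and in 214 of 1269 (16.9%, 14.8 to 19.0) in vehicle. Where neither was found these were 21 of 360 (5.83%) and 47 of 706 (6.66%).

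Of single receptor segments in vehicle, at least 5 members were in 8 of 65 CD8 cells with Trbv13-2 (12.3%), 12 of 105 with Trbv5 (11.4%) and 5 of 96 with Trbv19 (5.21%). In mSTAR1302, Trbv12-2 was in 349 such cells, 11.2% of them with at least 5 members.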
